A study of Mus musculus with 4 samples.

Results

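The 8 genes described here mark neutrophils in mouse tissue, and they were S100a8, S100a9, Csf3r, Cxcr2, Il1r2, G0s2, Hdc and Retnlg, of 31053 genes listed in the count matrices. They were chosen by name. Cells were picked with 2 of them, as barcodes with at least 5 UMIs (unique molecular identifiers, each standing for 1 captured RNA molecule) of S100a8 and S100a9 together, and the other 6 genes were then read in these cells. That rule found 44 of 10602 barcodes, called S100-high cells below.

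The study grew tumours from B16F10, a mouse melanoma line that resists immune checkpoint blockade, and profiled dissociated tumour cells by 5' single-cell RNA sequencing on the 10x Chromium system. Each of the 4 groups gave 1 library: control, aPD-1 (an antibody against PD-1, an inhibitory receptor of T cells), D+F (the anthracycline doxorubicin, which can cause immunogenic cell death, with fasudil, a ROCK inhibitor) and D+F+P (doxorubicin, fasudil and the PD-1 antibody). Red blood cells were lysed, and debris and dead cells were taken out before loading. The labels give no strain, age, sex, dose, day or number of mice, and do not say what the control mice received. With 1 library per group nothing below has a replicate check, each comparison is between libraries and not treatments, and every 95% interval covers counting error only.

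Neutrophils are short-lived white blood cells that leave the bone marrow under the cytokine G-CSF and follow chemokines into inflamed tissue and tumours. They hold little RNA, so droplet methods recover them as shallow barcodes. S100A8 and S100A9 are calcium-binding proteins that pair to form calprotectin, a major protein of the neutrophil cytoplasm that monocytes also make.

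S100a8 and S100a9 are neighbours on chromosome 3, at chr3:90668978-90670035 on the plus strand and chr3:90692632-90695721 on the minus strand of GRCm38, 22597 bases apart. Retnlg lies at chr16:48872621-48874496. All 8 genes matched the RefSeq promoter table of GRCm38.p6. The sequences below are the bases just upstream of these 3 genes, which had most of their UMIs in the same few cells. They run 5′ to 3′ on the gene's strand and stop before the annotated gene start. Capitals mark matches to TTNCNNAA (a core motif of C/EBP factors) and GAGGAA (a core motif of PU.1), both searched on both strands, so TTCCTC is a PU.1 core on the other strand.
S100a8, chr3:90668821-90668977, plus strand: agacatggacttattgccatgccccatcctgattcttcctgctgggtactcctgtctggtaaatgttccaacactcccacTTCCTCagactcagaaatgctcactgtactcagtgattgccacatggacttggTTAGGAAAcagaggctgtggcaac
S100a9, chr3:90695722-90695971, minus strand: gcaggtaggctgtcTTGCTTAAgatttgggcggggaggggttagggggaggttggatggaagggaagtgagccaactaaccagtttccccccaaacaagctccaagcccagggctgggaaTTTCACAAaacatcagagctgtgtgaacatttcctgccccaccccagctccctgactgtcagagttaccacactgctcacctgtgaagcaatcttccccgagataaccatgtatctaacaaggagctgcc
Retnlg, chr16:48872358-48872607, plus strand: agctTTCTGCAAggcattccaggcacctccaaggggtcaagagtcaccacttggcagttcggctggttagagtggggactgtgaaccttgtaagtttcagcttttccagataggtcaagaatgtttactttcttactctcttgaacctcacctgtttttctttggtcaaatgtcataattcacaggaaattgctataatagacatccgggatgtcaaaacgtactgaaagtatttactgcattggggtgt
The S100a8 stretch held 1 match to each motif, the S100a9 stretch held 2 C/EBP matches, and the Retnlg stretch held 1 C/EBP match. Over whole table windows (250 bases before to 50 after the start), 3 of the 8 genes held the C/EBP core, against 40.7% of all 32851 promoters, and 3 held the PU.1 core, against 28.3%. These short motifs are common, and a match is a description of the letters only.

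S100-high cells were most frequent in the control library. There were 32 among 2529 control barcodes (1.27%, interval 0.867 to 1.78), 8 among 2525 aPD-1 barcodes (0.317%, 0.137 to 0.623), 3 among 2809 D+F barcodes (0.107%, 0.0220 to 0.312) and 1 among 2739 D+F+P barcodes (0.0365%, 0.000924 to 0.203). The control interval lay above the other 3, whose intervals overlapped one another. S100a8 plus S100a9 ranged from 5 to 239 UMIs in the control cells (median 27.5), from 7 to 90 in aPD-1 (median 25) and from 41 to 57 in D+F (median 49), and the D+F+P cell had 87. Just inside the rule, 6 control cells and 1 aPD-1 cell had 5 to 8 UMIs. Just outside it, at 2 to 4 UMIs, lay 8 barcodes of control, 1 of aPD-1, 2 of D+F and 2 of D+F+P.

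Clustering gave a similar order of libraries. With all 8 genes left out of the variable genes, 1 cluster of 35 cells carried 10 of 12 neutrophil markers and is called neutrophil-like. Those 12 markers are Csf3r, Cxcr2, Mmp9, Trem1, Clec4d, Cxcl2, Acod1, Hcar2, Stfa2l1, Asprv1, Ifitm6 and Lcn2. Since they named the cluster, their detection in it is given below as a description only. Of the filtered cells it held 20 of 2286 in control (0.875%, 0.535 to 1.35), 9 of 2240 in aPD-1 (0.402%, 0.184 to 0.761), 4 of 2490 in D+F (0.161%, 0.0438 to 0.411) and 2 of 2445 in D+F+P (0.0818%, 0.00991 to 0.295). Here the control and aPD-1 intervals overlapped, while those of D+F and D+F+P lay below control. Tumour and lymphoid cells, which make up most of each library, set those denominators. Of cells in the myeloid clusters alone (neutrophil-like, monocyte/macrophage-like and both dendritic-like clusters), neutrophil-like cells were 18.0% in control (11.4 to 26.4), 3.18% in aPD-1 (1.46 to 5.95), 2.99% in D+F (0.819 to 7.47) and 1.77% in D+F+P (0.215 to 6.25). Fewer neutrophils in the tumour and fewer surviving digestion and dead-cell removal cannot be told apart here.

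**Figure D1:**
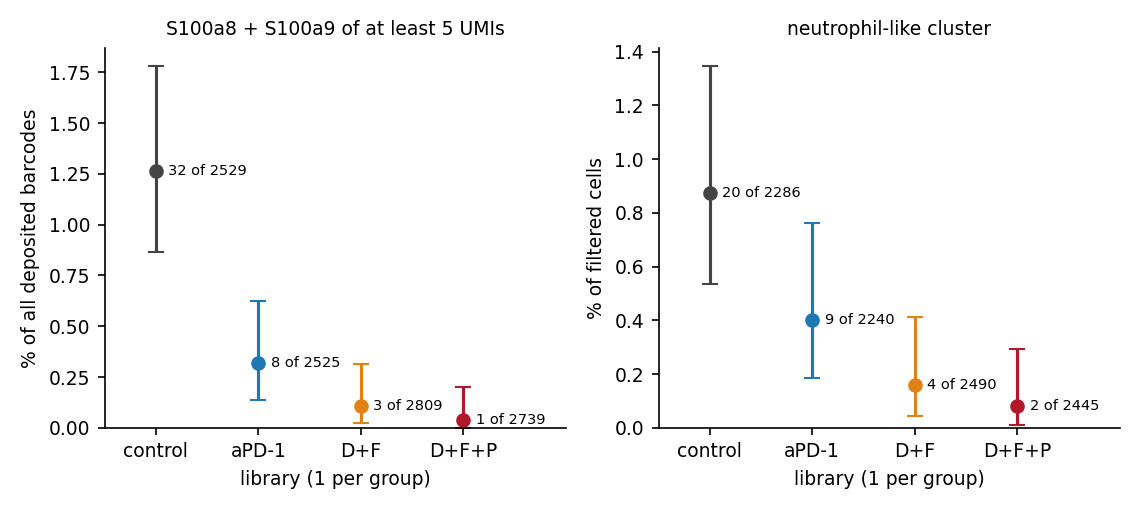
Share of barcodes with at least 5 UMIs of S100a8 plus S100a9 (left, % of all deposited barcodes) and share of cells in the neutrophil-like cluster (right, % of filtered cells) in each library. Points are shares of 1 library, bars are exact 95% intervals for counting error, and numbers give cells; control is highest in both, at 1.27% and 0.875%.

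Depth limits what these cells can show. The S100-high cells had a median of 1093 UMIs (505 to 5294) and 472 genes, against 8674 UMIs and 2523 genes in the other barcodes. Their median was 1136.5 UMIs in control, 1177.5 in aPD-1, 969 in D+F and 1117 in D+F+P, so they were alike in depth although the other barcodes ranged in median from 1645 in D+F+P to 15280 in control. The lowest total of any barcode was 500 UMIs in each of the 4 libraries, and 43.2% of S100-high cells lay under 1000 UMIs, against 20.1% of the others. Neutrophils below 500 UMIs would therefore not be seen. Ribosomal protein genes took a median of 4.40% of their UMIs, against 17.8% elsewhere, and S100a8 with S100a9 took 0.123% to 24.4%. Of all barcode sequences, 69 occurred in more than 1 library, and none was an S100-high cell.

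The S100-high cells that entered clustering lay in 2 clusters. Of the 38 that passed the cell filter, 27 lay in the neutrophil-like cluster and 11 in the monocyte/macrophage-like cluster, which is led by Lyz2 and the complement genes C1qa, C1qb and C1qc. Those 11 were 10 control cells and 1 aPD-1 cell. Among them, 6 had a Lyz2 UMI and 4 a Csf1r UMI, so the cluster name does not settle what each cell is. With the 8 genes kept in the clustering, the monocyte/macrophage-like cluster had 418 cells, not 513, and a dendritic-like cluster of 93 cells appeared. The 6 that failed the filter were 5 control cells with under 300 genes and 1 aPD-1 cell with 50.6% mitochondrial UMIs. Over the 44 cells, each of the 12 neutrophil markers had a UMI, while markers of NK cells, basophils and mast cells, eosinophils, red cells and platelets had 0. T cell markers had 3 UMIs, and melanoma markers had 62, at 878 CPM (UMIs of the genes per 1000000 UMIs of the cells) against 8526 CPM in the other barcodes. Monocyte/macrophage markers had 49 UMIs in 10 cells, with C1qa, C1qb and Adgre1 at 0. B cell markers had 10 UMIs in 5 cells, with Cd79a, Cd79b and Ms4a1 at 0. The part of these other markers in the results was not tested.

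The balance of the pair differed between these clusters. S100a9 outnumbered S100a8 in 24 of the 27 neutrophil-like S100-high cells and in 0 of the 11 monocyte/macrophage-like ones. Summed over each, S100a8 made up 34.9% of the pair in the neutrophil-like cells (541 against 1011 UMIs, 32.5 to 37.3) and 87.4% in the monocyte/macrophage-like cells (319 against 46 UMIs, 83.5 to 90.6). These intervals count UMIs of a few cells as independent and are narrower for it. Single cells ranged from 0% to 83.6% in the neutrophil-like cells and from 64.5% to 100% in the monocyte/macrophage-like cells. In 6 of the latter, all from control, S100a8 had UMIs and S100a9 had 0. By library, the S100a8 share in all neutrophil-like cells was 38.7% in control, 22.1% in aPD-1, 23.1% in D+F and 42.7% in D+F+P. The last rests on 1 cell, which held 97.4% of the S100a8 UMIs there. In aPD-1, 1 cell held 46.5% of the S100a9 UMIs, and without it the share was 33.3% (25.9 to 41.5). In D+F it was 32.2% (22.8 to 42.9) without the cell with most S100a9. The median over single cells was 34.9% in control and 31.8% in aPD-1.

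**Figure D2:**
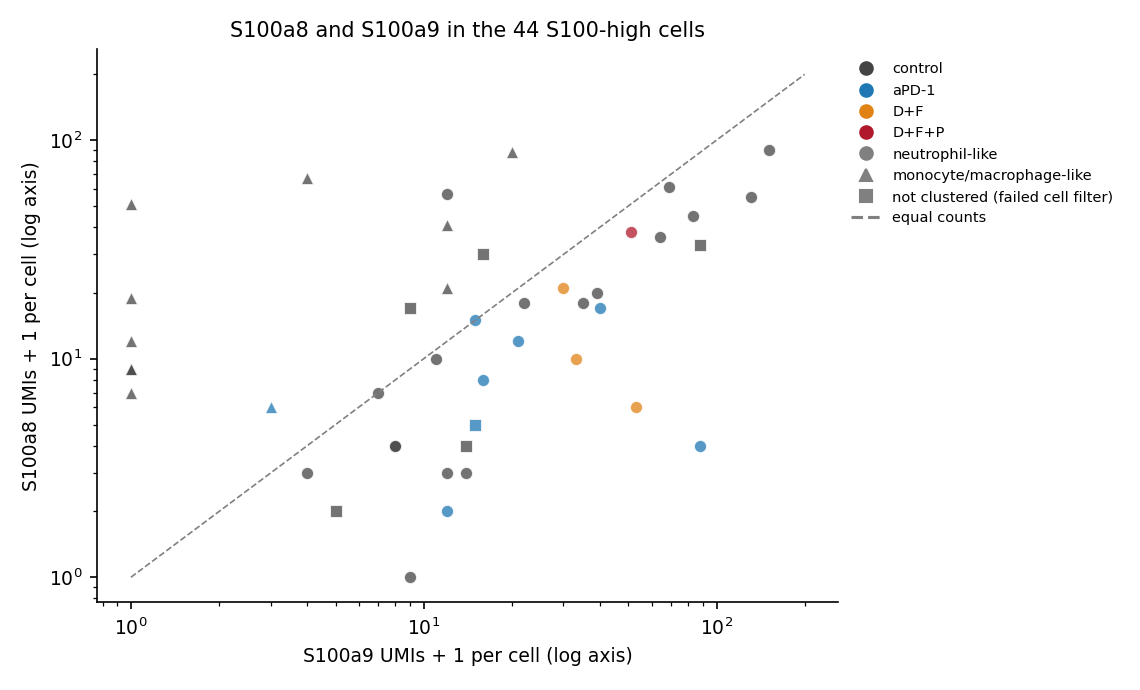
UMIs of S100a8 (vertical) and S100a9 (horizontal), each plus 1 on a log axis, in the 44 S100-high cells; colour is the library, shape is the cluster and the dashed line marks equal counts. Of the 27 neutrophil-like cells 24 lie below the line, and all 11 monocyte/macrophage-like cells lie above it.

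The other 6 genes, which the rule did not use, were found in most S100-high cells. At least 1 of them had a UMI in 24 of 32 control cells, 8 of 8 aPD-1 cells, 3 of 3 D+F cells and the 1 D+F+P cell, 36 of 44 in all. At least 2 had one in 25 cells and at least 3 in 17. The 8 cells with none were all from control. In the neutrophil-like cluster 26 of 27 S100-high cells carried another member, against 5 of 11 in the monocyte/macrophage-like cluster. Conversely, 8 of the 35 neutrophil-like cells were not S100-high, and 6 of those 8 carried at least 1 of the other 6 genes.

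Csf3r encodes the G-CSF receptor, which drives neutrophil production and survival. It had 14 UMIs in control, 25 in aPD-1, 10 in D+F and 20 in D+F+P. In the same order it was seen in 4 of 20, 3 of 9, 2 of 4 and 1 of 2 neutrophil-like cells, at 356 CPM over the 4 libraries (195 to 598). Only 20.3% of its UMIs lay there. Monocyte/macrophage-like cells held 72.5%, at 22.3 CPM and in 8.58% of cells at a median depth of 3691 UMIs, against 0.0393% of melanoma-like cells at 18230 UMIs. Levels there were 26.4 CPM in control (10.6 to 54.5), 16.6 in aPD-1 (9.86 to 26.3), 18.6 in D+F (8.02 to 36.6) and 36.5 in D+F+P (21.3 to 58.4), and these intervals overlapped. Of the 44 such cells with Csf3r, 31.8% had C1qa, near the 28.8% of the whole cluster.

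Cxcr2 encodes the receptor for the chemokines CXCL1, CXCL2 and CXCL5, by which neutrophils are drawn into tissue. It was hardly captured, with 2 or 3 UMIs in each library. In neutrophil-like cells 1 of 20 control cells had 1 UMI and 1 of 9 aPD-1 cells had 3, while D+F and D+F+P had 0 of 4 and 0 of 2. At a median of 988 UMIs a cell, no difference between libraries was detectable for this gene. Of the genes for 6 CXCR2 ligands, 2 had at least 10 UMIs in S100-high cells, Cxcl2 and Cxcl3. Cxcl2, a marker used to name the cluster, had a UMI in 35 of 35 neutrophil-like cells, at 57201 CPM. Cxcl3 had one in 20 of 35, at 5089 CPM. Cxcl1 and Cxcl5 were highest in fibroblast-like cells, at 3403 and 326 CPM, and had 0 UMIs in neutrophil-like cells. Ppbp had 30 UMIs and Cxcl15 had 2 over all barcodes, with 0 in S100-high cells.

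Il1r2 encodes a decoy receptor that binds interleukin-1 without signalling, and neutrophils carry it on their surface. It had 85 UMIs in control (2.47 CPM), 487 in aPD-1 (17.9), 180 in D+F (5.64) and 402 in D+F+P (17.7). In neutrophil-like cells it was detected in 7 of 20 in control (703 CPM, 402 to 1142), 8 of 9 in aPD-1 (3169 CPM, 2138 to 4524), 1 of 4 in D+F (1028 CPM, 334 to 2399) and 1 of 2 in D+F+P (453 CPM, 11.5 to 2523). The aPD-1 cells had the highest level in CPM, and their interval overlapped those of D+F and D+F+P but not that of control. As a share of cells, aPD-1 (88.9%, 51.8 to 99.7) and control (35.0%, 15.4 to 59.2) overlapped. CPM intervals count UMIs of a few cells as independent and are narrower for it. S100-high cells held only 4.25% of Il1r2 UMIs.

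T-like cells held most Il1r2. Their clusters had 61.9% of its UMIs, and monocyte/macrophage-like cells had 21.0%, at 147 CPM in control, 113 in aPD-1, 60.4 in D+F and 118 in D+F+P. The T-like cluster led by Cd8a and the granzyme gene Gzmf alone had 566 of 1154 UMIs. Il1r2 was seen there in 0 of 6 cells in control, 19.9% of 342 in aPD-1 (15.8 to 24.5), 22.5% of 173 in D+F (16.5 to 29.5) and 20.4% of 373 in D+F+P (16.4 to 24.8), at a median of 7646 UMIs, against 0.177% of melanoma-like cells at 18230 UMIs. The shares of the 3 treated libraries overlapped. The level in these cells was 94.0 CPM in aPD-1 (82.4 to 107), above 62.3 in D+F (49.6 to 77.3) and 58.6 in D+F+P (51.5 to 66.4). Median depths were 6854.5, 6556 and 10227 UMIs. In the same order, the 10 cells with most Il1r2 held 47.9%, 54.9% and 49.2% of these UMIs. These CPM intervals count such UMIs as independent and are narrower for it. The control library had too few cells of this cluster to place beside the treated libraries. The T-like cluster led by Foxp3, the regulator of regulatory T cells, had it in 38.5% of 13 cells in control (13.9 to 68.4), 29.0% of 62 in aPD-1 (18.2 to 41.9), 26.7% of 30 in D+F (12.3 to 45.9) and 37.5% of 48 in D+F+P (24.0 to 52.6). Cell numbers in both clusters were higher in the treated libraries, beside the higher whole-library Il1r2 level. Their part in that level was not tested.

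Of 6 other interleukin-1 genes, 3 had at least 10 UMIs in S100-high cells, Il1a, Il1b and Il1rn. In neutrophil-like cells Il1b, the secreted ligand, had a UMI in 34 of 35 cells, at 7430 CPM, and Il1rn, the receptor antagonist, in 32 of 35, at 8295 CPM. Il1a had one in 15 of 35. Il1r1, the signalling receptor, was highest in fibroblast-like cells, at 55.7 CPM, and had 1 UMI in neutrophil-like cells, where its partner Il1rap had 3 and Il1rl2 had 0. So the antagonist and the decoy, which both oppose interleukin-1, were found in the same cluster as the ligands.

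G0s2 encodes an inhibitor of the triglyceride lipase ATGL. In neutrophil-like cells it was found in 16 of 20 in control (3691 CPM, 2944 to 4569), 4 of 9 in aPD-1 (951 CPM, 435 to 1805), 3 of 4 in D+F (1439 CPM, 579 to 2965) and 0 of 2 in D+F+P. Control was highest in CPM, its interval lay above that of aPD-1 and overlapped that of D+F, and 2 D+F+P cells are too few to read a 0. As a share of cells, control (80.0%, 56.3 to 94.3) and aPD-1 (44.4%, 13.7 to 78.8) overlapped. In each cell thinned to 500 UMIs, 14 of 20, 3 of 9, 2 of 4 and 0 of 2 cells had it. None of the 11 monocyte/macrophage-like S100-high cells had a G0s2 UMI, against 21 of the 27 neutrophil-like ones. Melanoma-like cells held 51.8% of all G0s2 UMIs and had it in 153 of 5094 cells at a median of 18230 UMIs, but at 1.70 CPM (1.45 to 1.98), against 2545 CPM in neutrophil-like cells (2070 to 3095). Pnpla2, the ATGL gene, had 0 UMIs in S100-high cells.

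Hdc encodes histidine decarboxylase, which makes histamine and is used by mast cells, basophils and some myeloid cells including neutrophils. In neutrophil-like cells it was detected in 9 of 20 in control (1011 CPM, 641 to 1516), 7 of 9 in aPD-1 (1901 CPM, 1127 to 3005), 2 of 4 in D+F (617 CPM, 127 to 1802) and 2 of 2 in D+F+P (1359 CPM, 280 to 3971). These intervals overlapped. Melanoma-like cells had it in 0.785%, at a median of 18230 UMIs.

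Beyond these cells, 52.4% of Hdc UMIs lay in the monocyte/macrophage-like cluster, at 11.3 CPM in control (2.34 to 33.1), 51.7 in aPD-1 (39.1 to 67.2), 55.7 in D+F (35.7 to 82.9) and 103 in D+F+P (76.0 to 137). Control was lowest and did not overlap the other 3. That difference rested on 5 cells. They had 17 to 26 Hdc UMIs each where the next highest cell of the cluster had 5, and they came as 2 from aPD-1, 1 from D+F, 2 from D+F+P and 0 from control. Together they held 76.3% of the cluster's Hdc UMIs and 40.0% of all Hdc UMIs in the data. Without them, the levels were 11.3 CPM in control, 12.0 in aPD-1, 9.32 in D+F and 23.9 in D+F+P, and the intervals overlapped. These 5 cells were chosen for high Hdc after their values were seen, so leaving them out had to lower the treated levels. They had 0 UMIs of Lyz2, S100a8, S100a9, Il1r2 and Csf3r. Of 6 basophil and mast cell markers, Mcpt8, a protease gene of basophils, was in 3 of them, with 15 of the 38 Mcpt8 UMIs in all libraries. Gata2 had 5 UMIs in them, Fcer1a had 2, Cd200r3 had 1, and Cpa3 and Ms4a2 had 0. Over all libraries those genes had 13, 3, 4, 1 and 0 UMIs, and what these cells are was not tested.

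Retnlg encodes resistin-like gamma, a secreted protein of bone marrow and blood neutrophils. It had 94 UMIs in control, 0 in aPD-1, 0 in D+F and 1 in D+F+P. In neutrophil-like cells it was found in 7 of 20 in control (35.0%, 15.4 to 59.2), 0 of 9 in aPD-1 (0 to 33.6), 0 of 4 in D+F and 1 of 2 in D+F+P, against 0.177% of melanoma-like cells. That melanoma-like share pools the libraries. All 11 barcodes with Retnlg outside the S100-high cells were from control, where they were 0.441% of such barcodes. In neutrophil-like cells the control and aPD-1 shares overlapped in their intervals. The levels did not, at 3207 CPM in control (2514 to 4033) and 0 in aPD-1 (0 to 390). Within control it was uneven, with 1 cell holding 34 of the 73 UMIs in this cluster. The other resistin family genes Retn, Retnla and Retnlb had 0 UMIs in S100-high cells.

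**Figure D3:**
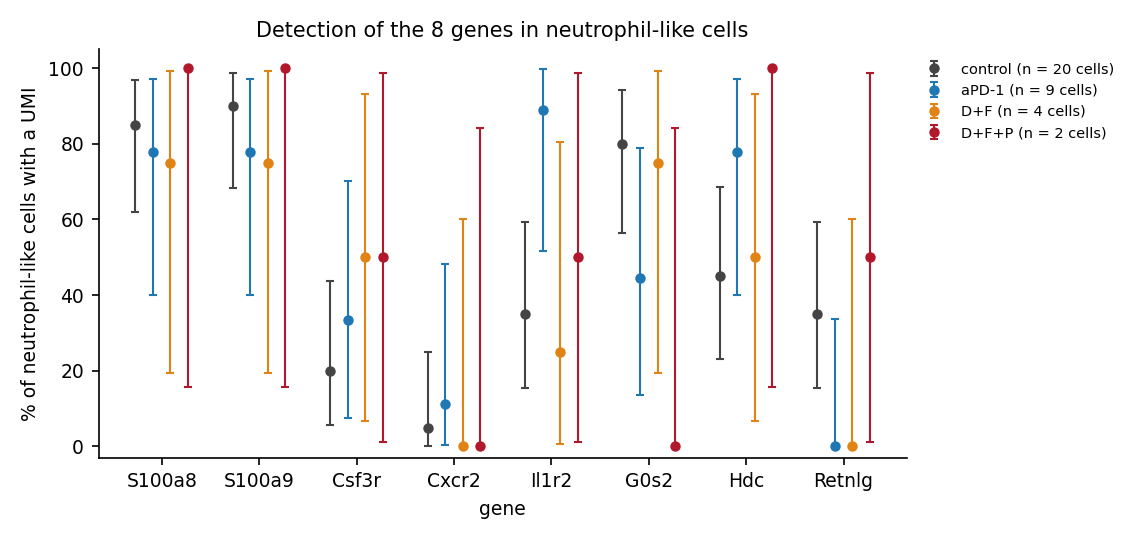
Share of neutrophil-like cells with at least 1 UMI of each of the 8 genes (vertical axis, %), by library, with exact 95% intervals for counting error. S100a8 and S100a9 were detected in 75.0% or more of cells in each library, and Retnlg in 35.0% of control cells and 0 of 9 aPD-1 cells; the wide D+F and D+F+P bars rest on 4 and 2 cells.

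The 8 genes differed in how much of their RNA lay in these cells. Over the 4 libraries together, S100-high cells held 88.4% of Retnlg UMIs (80.2 to 94.1), 35.7% of G0s2 (30.4 to 41.3), 18.8% of Csf3r (10.4 to 30.1), 18.0% of Hdc (13.4 to 23.3), 9.09% of Cxcr2 (0.230 to 41.3) and 4.25% of Il1r2 (3.16 to 5.57). For the pair that picked the cells the shares were 89.5% of S100a8 and 92.7% of S100a9, given as a description. These shares pool libraries that differ. In control alone S100-high cells held 88.3% of Retnlg, 71.8% of Hdc, 50.5% of G0s2, 42.9% of Csf3r and 28.2% of Il1r2. For Hdc the share was 13.3% in aPD-1, 6.38% in D+F and 2.70% in D+F+P, and over all libraries it was 30% (45 of 150 UMIs, 22.8 to 38.0) without the 5 Hdc-rich cells. Retnlg had 94 of its 95 UMIs in control, so its share describes that library.

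**Figure D4:**
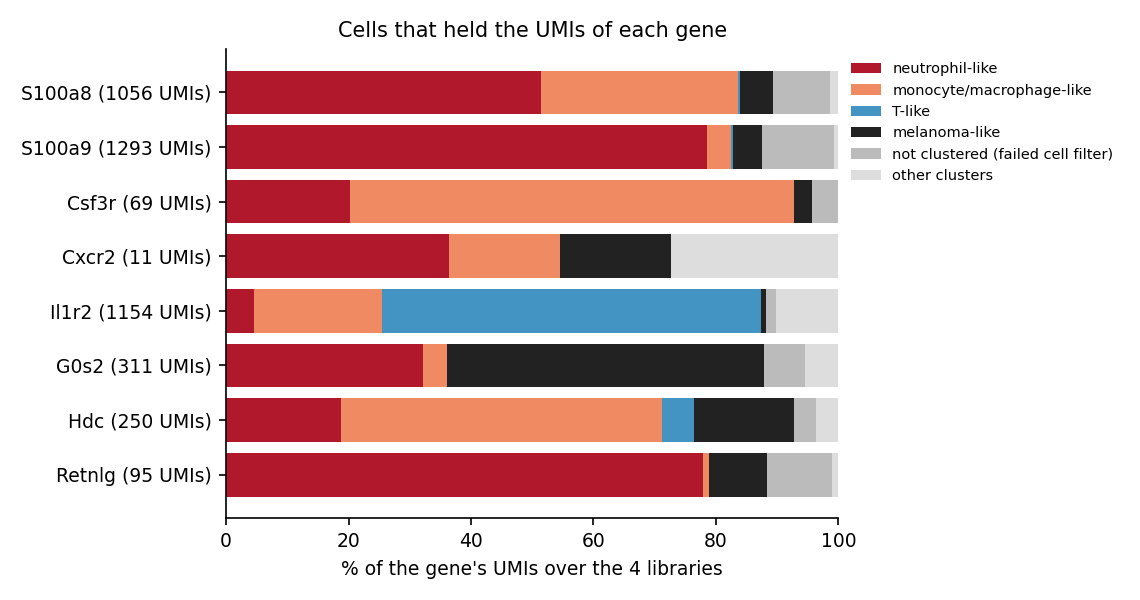
Cells that held the UMIs of each gene, as % of the gene's UMIs over the 4 libraries; colours are clusters, and total UMIs stand beside each name. Neutrophil-like cells held 78.5% of S100a9 and 77.9% of Retnlg, monocyte/macrophage-like cells 72.5% of Csf3r, T-like cells 61.9% of Il1r2 and melanoma-like cells 51.8% of G0s2.

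Monocyte/macrophage-like cells had S100a8 mainly in the control library. S100-high cells were 10 of 64 there (15.6%, 7.76 to 26.9), 1 of 250 in aPD-1 (0.400%, 0.0101 to 2.21), 0 of 104 in D+F (0 to 3.48) and 0 of 95 in D+F+P (0 to 3.81). Median depths were alike, at 3513.5, 3549.5, 3479.5 and 4170 UMIs. Summed, S100a8 stood at 1212 CPM in control (1083 to 1352), 8.32 in aPD-1 (3.80 to 15.8), 9.29 in D+F (2.53 to 23.8) and 10.7 in D+F+P (3.48 to 25.0). Control lay far above the other 3, which overlapped each other. The control level was carried by the 10 S100-high cells, which held 314 of its 321 S100a8 UMIs. In the other 54 control cells S100a8 stood at 29.9 CPM (12.0 to 61.7), and in the 249 other aPD-1 cells at 3.70 CPM (1.01 to 9.48). Those cells were kept because S100a8 plus S100a9 lay below the rule's threshold, which caps the S100a8 level left in each library. The levels left are therefore a description only, and cannot decide whether the libraries differ outside the S100-high cells. S100a9 stood at 189 CPM in control (140 to 249) and 1.85 in aPD-1, with 0 UMIs in D+F and in D+F+P. Of the cluster's 26 cells with S100a8, 7.69% had the macrophage gene C1qa, against 28.8% of the cluster, and the part of its make-up in these levels was not tested.

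**Figure D5:**
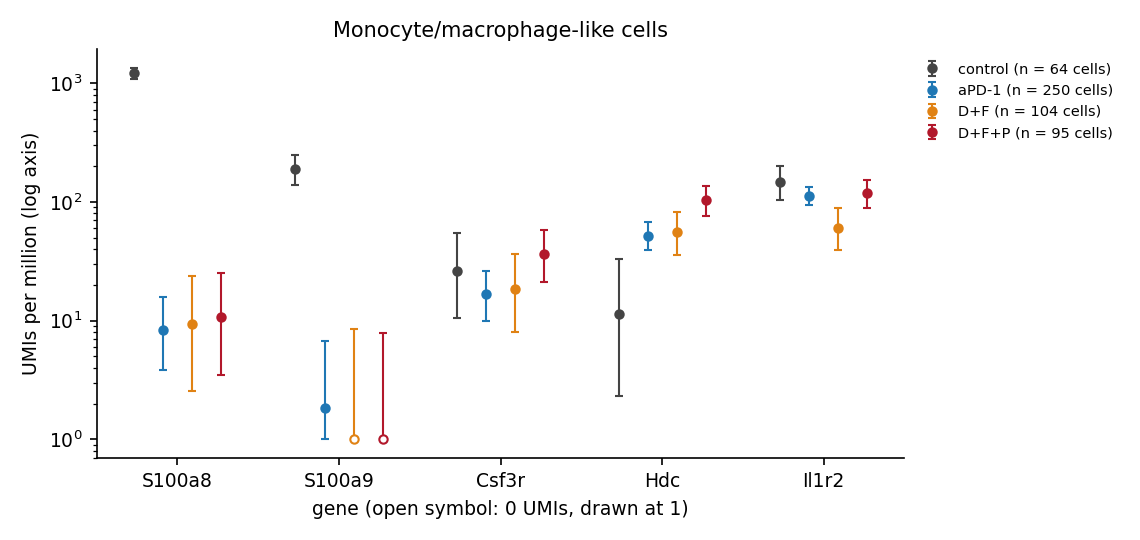
Level of 5 genes in monocyte/macrophage-like cells by library, as CPM on a log axis, with exact 95% intervals for counting error; open symbols mark 0 UMIs, drawn at 1, and intervals reaching under 1 stop there. S100a8 was 1212 CPM in control and 8.32 to 10.7 CPM in the other 3, with 314 of 321 control UMIs in 10 of 64 cells, while Csf3r overlapped in all 4; the Hdc difference rested on 5 cells.

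Summed over whole libraries, the members split in direction. A gene was counted as higher or lower at 1.5-fold or more with at least 20 UMIs in the pair of libraries, which Cxcr2 did not reach. Against control, 4 of the other 7 were lower in aPD-1 (S100a8, S100a9, G0s2 and Retnlg), where 6.21% of all genes were, and 3 were higher (Il1r2, Hdc and Csf3r), where 17.4% were. In D+F the same 4 were lower (4.91% of all genes) and 1, Il1r2, was higher (12.4%). In D+F+P the lower 4 and the higher 3 were those of aPD-1, against 14.0% and 22.9% of all genes, and without the 5 Hdc-rich cells the higher were 2, since Hdc was then under 1.5-fold. The median log2 ratio of the 7 was -1.85 in aPD-1, -1.59 in D+F and -2.46 in D+F+P, beside -0.02, -0.04 and -0.04 over all genes. With the members split in direction, this median is the value of S100a9 in aPD-1 and of G0s2 in D+F and D+F+P. It is not a shift shared by the 7. All 3 comparisons share the control library.

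With 888 UMIs in control, 72 in aPD-1, 50 in D+F and 46 in D+F+P, S100a8 had log2 ratios to control of -3.28 (-3.65 to -2.94), -4.04 (-4.48 to -3.63) and -3.67 (-4.13 to -3.24). S100a9 had 925, 203, 114 and 51 UMIs, with ratios of -1.85 (-2.07 to -1.63), -2.91 (-3.20 to -2.63) and -3.58 (-4.02 to -3.17). G0s2 had 192, 37, 59 and 23 UMIs, with ratios of -2.04, -1.59 and -2.46. These 3 genes were highest in control. Without the S100-high cells the G0s2 ratios were -1.32 (-1.97 to -0.72), -0.76 (-1.28 to -0.26) and -1.45 (-2.17 to -0.78). For S100a8 and S100a9, which chose those cells, what is left lies below the rule's threshold, at 75 and 92 UMIs in control and, for S100a9, 1 UMI in each treated library. Retnlg, at 0 UMIs in aPD-1 and D+F, was at least 24.8-fold and 29.1-fold lower there at a floor of 3 UMIs per library, and its log2 ratio in D+F+P was -5.95 (-11.27 to -3.44).

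Il1r2, in contrast, was higher in the treated libraries, with log2 ratios to control of 2.86 (2.52 to 3.21), 1.19 (0.81 to 1.58) and 2.84 (2.50 to 3.20) in the same order. Hdc, at 39, 90, 47 and 74 UMIs, had ratios of 1.55 (0.99 to 2.13), 0.38 (-0.27 to 1.03) and 1.53 (0.95 to 2.12). Without the 5 Hdc-rich cells these became 0.61, -0.42 and 0.53. Those cells were chosen for high Hdc and none came from control, so leaving them out had to lower the ratios. The D+F interval with them held both signs. Without the S100-high cells, but with the 5 Hdc-rich cells kept in, the Hdc ratios were 3.16 (2.25 to 4.22), 2.11 (1.13 to 3.21) and 3.31 (2.39 to 4.38). They rest on 11 UMIs left in control, against 78, 44 and 72. Csf3r had ratios of 1.18 (0.18 to 2.23), -0.38 (-1.71 to 0.90) and 1.12 (0.06 to 2.21) from few UMIs.

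Between treated libraries, D+F+P against D+F had 2 of 6 members lower (7.38% of all genes), S100a9 at -0.67 and G0s2 at -0.87, and 3 higher (19.3%), Il1r2 at 1.65 (1.40 to 1.91), Csf3r at 1.49 (0.33 to 2.75) and Hdc at 1.15 (0.60 to 1.71). D+F+P against aPD-1 had 1 of 6 lower (6.82%), S100a9 at -1.73 (-2.20 to -1.28), and 0 higher (12.5%). Both S100a9 values rest on few cells, since 50 of its 51 D+F+P UMIs were in 1 cell.

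Outside the S100-high cells, low counts of S100a8 and S100a9 were more frequent in control barcodes. A UMI of either was present in 6.29% of the other control barcodes (5.37 to 7.31), 0.437% in aPD-1 (0.218 to 0.781), 0.499% in D+F (0.273 to 0.836) and 0.292% in D+F+P (0.126 to 0.575). Of the 157 such control barcodes, 149 had exactly 1 UMI. Thinned to 1000 UMIs each, the shares were 1.05%, 0%, 0.124% and 0.187%, with 222, 391, 383 and 1131 shallower barcodes left out. Melanoma-like cells had one in 5.28% of control cells at a median of 17931.5 UMIs. Single UMIs in control, well under the rule's 5, were treated as background, and their source was not tested.

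The UMIs outside S100-high cells differed in balance too. S100a8 made up 44.9% of the pair in the other control barcodes (75 against 92 UMIs, 37.2 to 52.8), beside 38.7% in control neutrophil-like cells (35.8 to 41.7) and 87.7% in control monocyte/macrophage-like S100-high cells. The other barcodes of aPD-1 held 11 UMIs of S100a8 against 1 of S100a9, those of D+F 16 against 1 and those of D+F+P 9 against 1, while neutrophil-like cells of these libraries had more S100a9 than S100a8. Other barcodes include myeloid cells below the rule, so not all of these UMIs are stray. Monocyte/macrophage-like cells held 4 of the S100a8 UMIs in aPD-1, 4 in D+F and 5 in D+F+P. The 1 S100a9 UMI of aPD-1 and that of D+F+P each lay in a neutrophil-like cell. Retnlg followed the control pattern, with UMIs in 11 other control barcodes and 0 in the other barcodes of each treated library.

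Neutrophil genes were also read by stage. Of the 16053 genes with at least 10 UMIs over all barcodes, 5.59% had at least 10 UMIs in S100-high cells. None of 5 primary granule genes, made in marrow precursors, had a UMI in S100-high cells. Mpo and Prtn3 had 81 and 181 UMIs elsewhere, of which 72 and 138 were in the aPD-1 library. In the monocyte/macrophage-like cluster, 71 Mpo UMIs lay in only 2 of 513 cells and 145 Prtn3 UMIs in 16. Of 8 secondary granule genes, 4 had at least 10 UMIs in S100-high cells: Lcn2 (150), Chil3 (20), Cybb (16) and Camp (11). Camp, the cathelicidin gene, was seen in 2 of the 44 cells, both from control. Chil3 and Cybb had 0 UMIs in neutrophil-like cells. Of 19 late and mature genes 14 had at least 10 UMIs, led by Slpi (606), a protease inhibitor, Hcar2 (237), a receptor for hydroxybutyrate and niacin, and Clec4e (164), a receptor for fungal and mycobacterial glycolipids.

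Of 17 genes of activated and tumour neutrophils, 12 had at least 10 UMIs in S100-high cells. After Cxcl2 came the chemokine genes Ccl4 (1049 UMIs) and Ccl3 (703), Il1b (416) and Acod1 (216), which makes itaconate. Ccl3 was seen in 17 of 20 control, 8 of 9 aPD-1, 4 of 4 D+F and 2 of 2 D+F+P neutrophil-like cells. Acod1, a marker used to name the cluster, was seen in 20, 9, 3 and 2 of them. Ccl4 was seen in 15, 8, 4 and 0 of them, so Ccl3 and Acod1 were found in neutrophil-like cells of every library and Ccl4 in those of 3. Siglecf had 0 UMIs in S100-high cells, and Vegfa had 4. Of 8 interferon-induced genes 7 reached 10 UMIs, led by Ifitm3 (376) and Isg15 (264), which other cells of these tumours also express.

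Some genes, chosen after their values were seen and not tested, differed in detection between libraries within the cluster. Ptgs2, the cyclooxygenase-2 gene, had a UMI in 15 of 20 control, 1 of 9 aPD-1, 0 of 4 D+F and 0 of 2 D+F+P neutrophil-like cells. Wfdc17 had one in 9, 0, 0 and 0. Lcn2, which binds bacterial siderophores, had one in 12, 0, 3 and 0, so it was missing in the aPD-1 cells but seen in most of the 4 D+F cells. Mmp9, a gelatinase, was seen in 0, 4, 0 and 0 cells. Other cells hold most of the UMIs of these genes, since 4.59% of Wfdc17 UMIs and 10.7% of Ptgs2 UMIs lay in S100-high cells.

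By the likeness rule, the genes nearest to the pair were those with the largest share of their UMIs in the 44 S100-high cells, among 270 genes with at least 30 UMIs there. They were Csf3 (55.4%), Hcar2 (46.1%), Slpi (37.9%), Lcn2 (34.3%), Trem1 (30.4%), Slfn4 (30.3%), Acod1 (29.3%), Il1rn (23.7%), Cyp4f18 (23.6%), Il1a (20.9%), Clec4e (20.1%), Cxcl2 (19.3%), Ankrd33b (18.3%), Clec4d (16.0%) and Ccr1 (15.4%). Csf3, the G-CSF gene whose product binds the Csf3r receptor, rested on 5 control cells with 46 of its 83 UMIs. Hcar2 and Acod1 were found in 38 and 40 of the 44 cells, more than any of the 6 members, whose highest count was 25, for G0s2.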

How the data were processed

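The deposited values are UMI counts, whole numbers for each barcode and gene, per the file headers. Control had 2529 barcodes and 34444856 UMIs, aPD-1 had 2525 and 27216211, D+F had 2809 and 31937128, and D+F+P had 2739 and 22691663. The authors ran Cell Ranger 3.1.0 with GRCm38, per the submitters' processing notes; the annotation release and any later filter are not given in the sources used here. All deposited barcodes entered the count of S100-high cells. For clustering, barcodes needed at least 300 genes and 500 UMIs, with no more than 20% of UMIs from mitochondrial genes, which left 9461. After scaling each cell to 10000 and taking logs, 1992 of the 2000 most variable genes (the 8 members were left out), 30 principal components and a graph of 15 neighbours were used for Leiden clustering at resolution 1 (Scanpy 1.11.5, leidenalg 0.10.2, Python 3.11.15). No doublet caller was run and no doublet was removed. A name needed 3 markers, each in at least 10% of a cluster's cells, and how competing names were scored was settled after the clusters were seen.

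CPM is the UMIs of a gene per 1000000 UMIs of the library or cells named. Shares carry exact Clopper-Pearson intervals, CPM exact Poisson intervals and ratios exact conditional binomial intervals at 95% (SciPy 1.17.1), all covering counting error only. For a ratio to a library at 0 UMIs, a floor of 3 counts was used. Each group has 1 library, so groups were not tested against each other and no p-value is printed. The ratio code was tested on simulated data. Named genes are the 8 members, genes of 12 lists with at least 10 UMIs in S100-high cells (up to 8 a list), partner genes by their highest cluster, and the 15 genes ranked by likeness. Genes named at 0 or at low counts, and those set apart as mostly seen in control, were chosen after their values were seen. The members and lists were chosen with earlier results of these data known. Alternatives were other rules for S100-high cells, the cell filter, thinning, median-of-ratios scaling and clustering with the members kept in. Leaving out the S100-high cells or the 5 Hdc-rich cells, requiring both S100a8 and S100a9, leaving out the cell with most S100a9, and using the neutrophil-like cluster itself were added after the data were seen. V(D)J data were not used here.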

Additional observations from a re-analysis of the deposited data

How the results depend on the processing

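Of 277 recomputed values 242 stayed within the counting interval of the reported one or, for counts, within 1.5 times. The order of the libraries in S100-high cells was control, aPD-1, D+F, then D+F+P under all 7 other rules for picking them. These rules pick largely the same barcodes, with 3 or 4 in D+F and 1 or 2 in D+F+P, so they are not independent checks. Thinning to 1000 UMIs lowered the share of other barcodes with S100a8 or S100a9 to 1.05% in control, 0% in aPD-1 and 0.124% in D+F. A threshold of 10 UMIs put 86.6% of S100a8 UMIs in high cells. Without the 5 Hdc-rich cells S100-high cells held 30% of Hdc UMIs, not 18.0%. In D+F against control, 2 members were at least 1.5-fold higher, not 1, with the cell filter and also without the S100-high cells. Without those cells, D+F+P had 1 member lower against D+F, and 0 against aPD-1, and the S100a9 ratio turned to 0.49 and 0.26 in these comparisons, from 1 UMI in each library. Clustering with the members kept in returned the same 35 neutrophil-like cells. It put monocyte/macrophage-like cells at 9.06% in aPD-1, 3.37% in D+F and 2.86% in D+F+P, against 11.2%, 4.18% and 3.89%. It also gave a dendritic-like cluster of 93 cells led by Wdfy4 and Clec9a, which the main clustering lacked. That cluster had 3 cells in control, 44 in aPD-1, 21 in D+F and 25 in D+F+P. How far dendritic cells in the main monocyte/macrophage-like cluster set its levels was not tested. The cause of these shifts was not tested beyond what each change removes. No paired analysis was possible because each group has 1 library, and for the same reason no replicate could be left out. Cxcr2 had 11 UMIs in all, the fewest of the 8 genes.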

Other observations

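Receptors for other colony-stimulating factors were also read in the neutrophil-like cells. Csf2ra and Csf2rb, the chains of the GM-CSF receptor, had a UMI in 10 and 11 of 35 cells, at 331 and 382 CPM, and Csf1, the macrophage growth factor gene, in 16 of 35, at 789 CPM. Csf2, the GM-CSF gene, had 134 UMIs over all barcodes and 0 in S100-high cells, and was highest in unnamed cluster 11, at 60.4 CPM. That cluster was led by Tnfsf11, Tnfsf8 and Cd4 among other genes.

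Cd274, which encodes the PD-1 ligand PD-L1, had a UMI in 17 of 35 neutrophil-like cells, at 1807 CPM, the highest level of any cluster. By library these were 11 of 20 control, 3 of 9 aPD-1, 2 of 4 D+F and 1 of 2 D+F+P cells. Of the genes for S100A8/A9 receptors, none of 4 reached 10 UMIs in S100-high cells. Tlr4 had 3 UMIs there, Ly96 had 2 and Ager had 0, while Cd36 was highest in monocyte/macrophage-like cells, at 58.8 CPM. None of the 4 genes for histamine receptors and transport had a UMI in S100-high cells.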
